A study of Mus musculus with 6 samples.

Results

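The early lymphoid and B-lineage genes described here are 31 of the 17523 entries of the deposited count table, taken by symbol from a set list of genes for lymphoid priming, V(D)J recombination, the B-cell receptor and lymphoid transcription. All 31 have an entry in the table. The RNA came from bone marrow cells of C57BL/6 mice, sorted by FACS and described in the series as hematopoietic stem cells (HSCs). There were 3 wild-type (WT) libraries and 3 libraries from NHD13 mice, which carry the NUP98-HOXD13 fusion gene, which joins a nuclear pore protein to a homeobox factor, and model myelodysplastic syndrome. The series asks how expression of this fusion affects these stem cells. Neither the ages of the mice, the promoter of the transgene nor the sort markers are given in the sources used here, and nothing says that the replicates are separate animals, so p-values measure only the spread between these libraries.

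Lymphoid cells arise from multipotent progenitors that switch on a small set of lymphoid genes before they commit, a step called lymphoid priming. Primed progenitors express the IL-7 receptor, which carries survival signals, and the RAG recombinase and terminal transferase, which cut the antigen receptor genes and add bases at their joints. The factors EBF1 and PAX5 then fix the B-cell fate and switch on the pre-B-cell receptor, built from the surrogate light chain (VPREB and IGLL1 proteins) and the signalling chains CD79A and CD79B. In bone marrow this programme marks the branch that leads away from myeloid and erythroid cells.

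Levels are CPM, the counts scaled to the size of each library with TMM factors, and the test was the quasi-likelihood F test of edgeR with Benjamini-Hochberg adjustment over all tested genes and a threshold of 0.05. Total counts ran from 12541538 to 14388772 per library, and the floor of 3 counts, the limit that a count of 0 allows, was 0.207 to 0.237 CPM, for counting error only. On the second principal component (12.3% of the variance) NHD13 replicate 1 lay at 28.2 and the other libraries between -14.1 and 8.67. Transcripts of the stem cell receptor Kit were at 254 ± 13.7 (WT) and 226 ± 9.44 CPM (NHD13) (SD, n = 3 each), while Procr, a marker of long-term HSCs, had 14 counts in WT and 7 in NHD13. The mature neutrophil genes S100a8 and S100a9 were at 8060 and 12500 CPM in WT and at 5390 and 7930 CPM in NHD13. Of the 12 stem and progenitor markers, 11 were tested, 6 fell, among them Flt3 and Cd34, and 1 rose (Mecom, log2 change 2.73, adjusted p = 0.00105). Among all tested genes 15.3% were lower and 15.0% higher. The count of 6 was 4 without WT replicate 2, WT replicate 3 or NHD13 replicate 2. It was 2 with the share of Y-linked counts added to the model, as described below. In bulk samples, fewer cells of a type and less RNA per cell cannot be told apart.

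The promoters of 5 of these genes are shown first, from RefSeq on GRCm38.p6 (the same assembly as mm10), each from 250 bases before to 50 bases after the annotated start and written 5′ to 3′ on the gene's strand. Cd22 and Foxo1 are shown because they alone among the matched genes hold the EBF1 motif, and Dntt, Rag1 and Btla, chosen after their values were seen, because they carry the falls described below in the recombination genes and surface receptors. Capitals mark CAGGTG, an E-box of the kind bound by E proteins, in Rag1 and, on the other strand and so read as CACCTG, near the 5′ end of the Cd22 window, GAGGAAG, a core of the kind bound by PU.1 and other ETS factors, in Btla (2 overlapping copies), and the EBF1 palindrome (TCCC, 2 bases of any kind, GGGA) in Cd22 and Foxo1. The windows are chr19:41029025-41029324 (plus strand), chr2:101649483-101649782 (minus), chr16:45224087-45224386 (plus), chr7:30878979-30879278 (minus) and chr3:52268087-52268386 (plus).
Dntt: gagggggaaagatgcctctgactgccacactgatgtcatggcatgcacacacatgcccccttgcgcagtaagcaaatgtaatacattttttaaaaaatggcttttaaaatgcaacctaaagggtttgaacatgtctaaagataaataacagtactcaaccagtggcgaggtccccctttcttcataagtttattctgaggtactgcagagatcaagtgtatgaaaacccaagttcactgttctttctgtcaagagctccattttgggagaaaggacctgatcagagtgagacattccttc
Rag1: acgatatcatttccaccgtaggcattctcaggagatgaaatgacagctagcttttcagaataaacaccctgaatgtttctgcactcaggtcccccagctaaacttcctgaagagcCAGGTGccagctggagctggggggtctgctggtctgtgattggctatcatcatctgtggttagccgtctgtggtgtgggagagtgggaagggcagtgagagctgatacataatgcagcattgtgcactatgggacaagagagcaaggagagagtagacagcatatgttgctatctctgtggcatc
Btla: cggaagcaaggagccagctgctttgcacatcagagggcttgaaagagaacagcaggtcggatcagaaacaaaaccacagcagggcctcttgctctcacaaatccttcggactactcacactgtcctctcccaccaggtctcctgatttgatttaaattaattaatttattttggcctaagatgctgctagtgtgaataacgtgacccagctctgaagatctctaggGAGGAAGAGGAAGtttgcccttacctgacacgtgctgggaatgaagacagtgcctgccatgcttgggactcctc
Cd22: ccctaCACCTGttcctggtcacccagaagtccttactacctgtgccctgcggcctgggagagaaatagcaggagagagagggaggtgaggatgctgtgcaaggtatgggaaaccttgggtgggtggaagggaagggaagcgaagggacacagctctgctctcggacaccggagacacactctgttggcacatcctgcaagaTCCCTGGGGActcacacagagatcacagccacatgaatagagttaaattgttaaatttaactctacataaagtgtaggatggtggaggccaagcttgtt
Foxo1: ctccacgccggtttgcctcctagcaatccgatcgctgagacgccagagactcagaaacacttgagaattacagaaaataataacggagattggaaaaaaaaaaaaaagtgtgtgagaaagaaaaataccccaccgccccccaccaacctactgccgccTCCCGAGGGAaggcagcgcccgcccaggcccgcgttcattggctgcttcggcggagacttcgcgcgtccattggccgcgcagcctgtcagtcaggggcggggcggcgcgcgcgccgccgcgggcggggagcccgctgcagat

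RefSeq promoters were matched by symbol for 22 of the 31 genes, in 29 windows, and motifs were searched on both strands. The EBF1 palindrome was found in the windows of Cd22, starting 49 bases before the annotated start, and Foxo1, 92 bases before it, and in 0.904% of all 32851 promoter windows. CAGGTG was found in 11 of the 29 windows, for 10 genes, and in 20.2% of all windows. GAGGAAG was found in 5 of the 29 windows, for 5 genes, and in 13.6% of all windows. These last motifs were added after the data had been seen. The Dntt window holds none of the 3 motifs. A match is a run of letters and not a measured binding site.

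Most of the tested lymphoid genes were lower in NHD13. Of the 31 genes, 22 had enough counts for the test, 14 fell, 1 rose (Bcl11a) and 7 did not pass. Among all 12013 tested genes, 30.3% passed in either direction, 15.3% as lower and 15.0% as higher in NHD13. A fall of at least 2-fold was called for 9 of the 22, against 5.66% of all tested genes. Over the tested genes of the set the median log2 change was -0.92, against 0.00 over all tested genes. Every WT library was above every NHD13 library for 13 of the 22, as for 22.6% of all tested genes. The low-count filter bears on these counts. Of the 22 genes, 5 (Rag1, Rag2, Cd79a, Blnk and Cd22) reached its minimum in all 3 WT libraries and in fewer than 3 NHD13 libraries. All of these but Cd79a are among the 9 with a fall of at least 2-fold. For the 14 genes that reached it in all 6 libraries, 10 fell and 1 rose, with a median log2 change of -0.66, against 14.0% lower among all 11214 genes that did so.

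**Figure D1:**
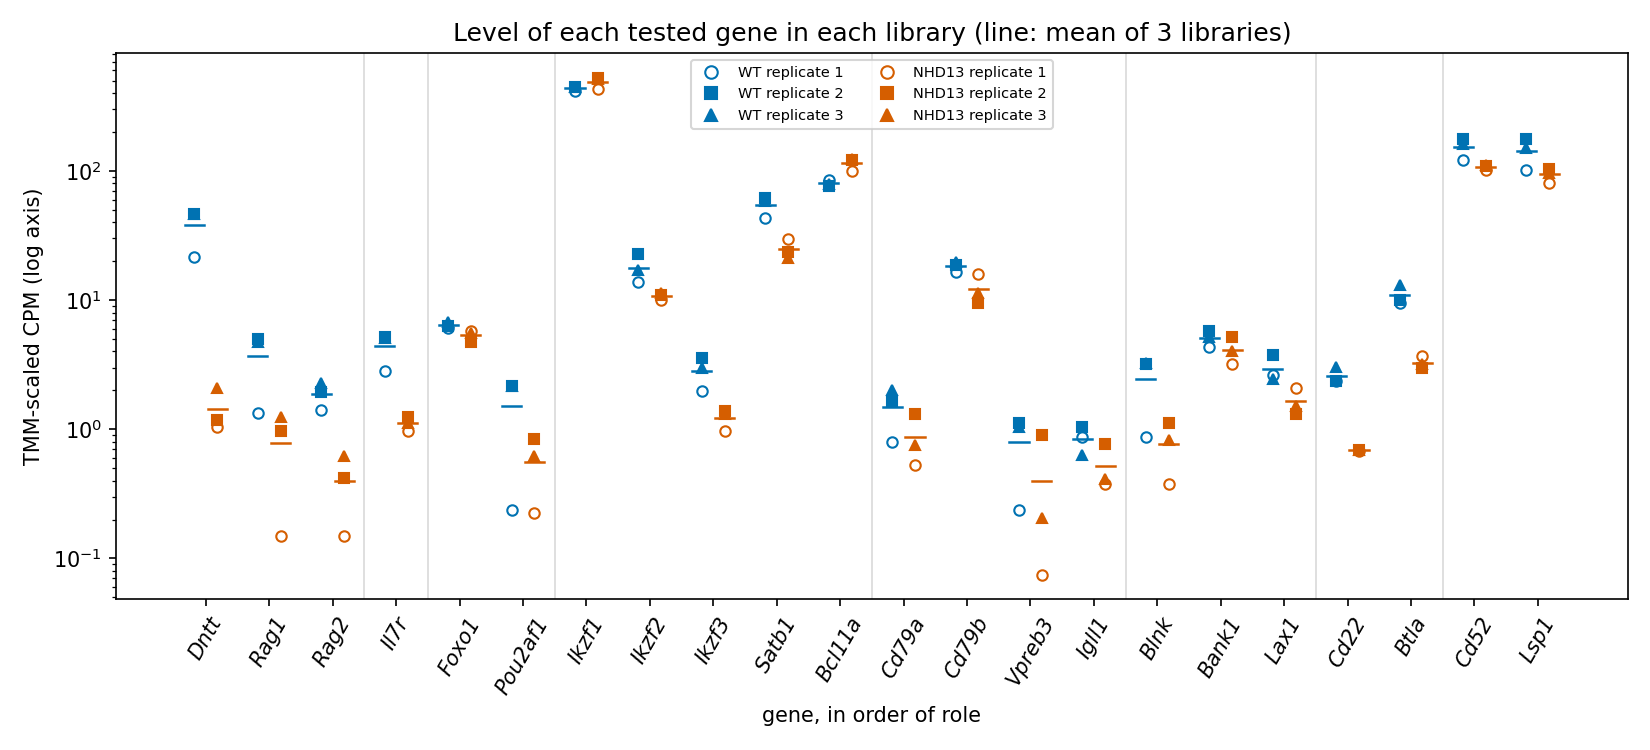
TMM-scaled CPM on a log axis for the 22 tested genes, with 1 point per library (open circles are replicate 1 of each group) and a line at the mean of 3 libraries. The Dntt points lie between 21.5 and 46.6 CPM in WT and between 1.05 and 2.07 CPM in NHD13, and WT replicate 1 is the lowest WT point for 19 of the 22 genes.

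**Figure D2:**
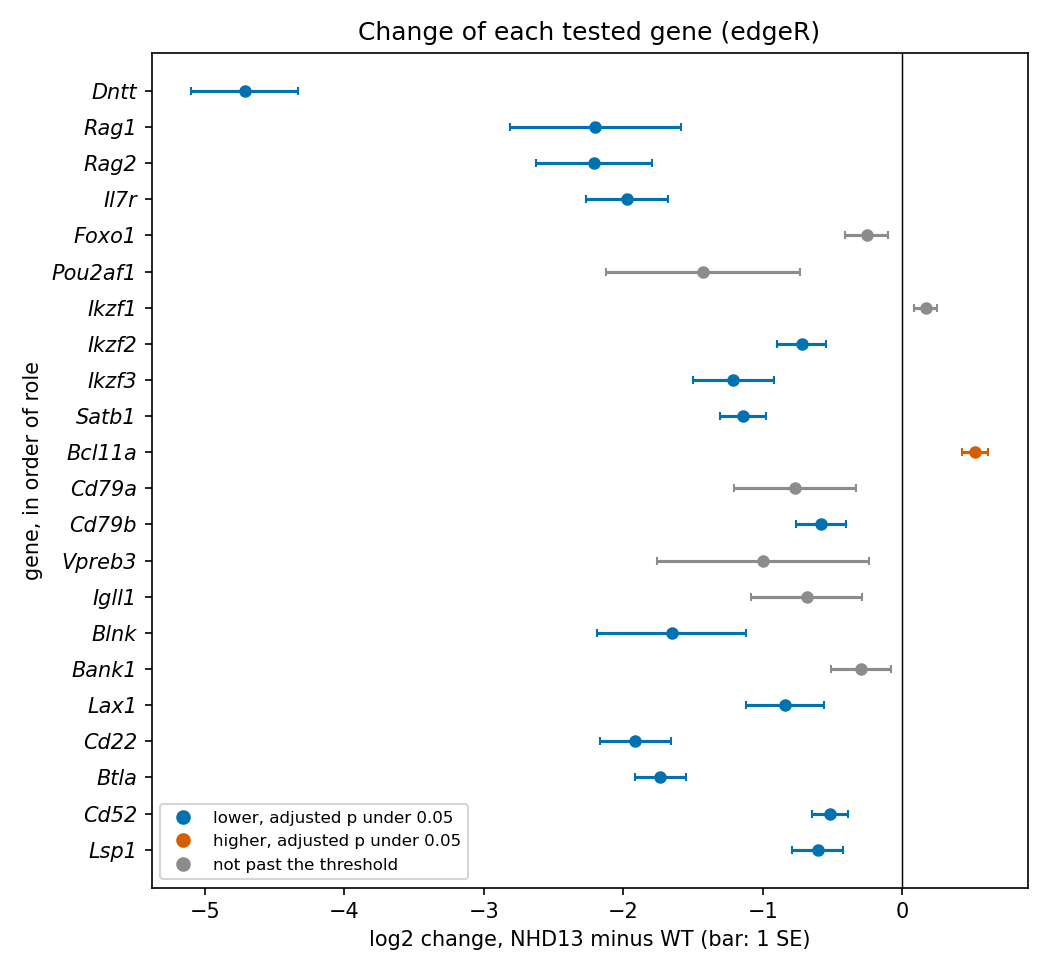
Log2 change of NHD13 minus WT for the 22 tested genes, with bars of 1 SE and colour by the edgeR call. The values run from -4.72 for Dntt to 0.52 for Bcl11a, and the 7 grey genes did not pass the threshold.

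Among the 22 tested genes the recombination genes had the largest falls, and all 3 passed the test. Dntt reached the low-count filter in 3 NHD13 libraries, Rag1 in 2 and Rag2 in 0, so Rag1 and Rag2 depend on WT for their place here. Dntt encodes terminal transferase, which adds bases at antigen receptor joints without a template. It held 21.5, 46.6 and 46.2 CPM in WT replicates 1, 2 and 3 and 1.05, 1.18 and 2.07 CPM in NHD13 replicates 1, 2 and 3. Every WT library was far above every NHD13 library, with WT replicate 1 the lowest of its group. The means were 38.1 CPM ± 14.4 and 1.43 CPM ± 0.556 (SD, n = 3 each), a 26.3-fold fall (log2 change -4.72 ± 0.38 SE, edgeR adjusted p = 0.000159). Dntt lies on chromosome 19 (mm10, 41029275 to 41059525, plus strand) and overlaps no other annotated gene. With 1 library left out at a time its log2 change stayed between -5.09 and -4.54.

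Rag1 and Rag2 encode the 2 subunits of the recombinase that cuts at recombination signals, and lie side by side on chromosome 2 (Rag1 101638282 to 101649501, minus strand, and Rag2 101624718 to 101632529, plus strand). Rag1 held 1.34, 4.98 and 4.73 CPM in WT and 0.15, 0.973 and 1.24 CPM in NHD13, replicates 1 to 3 in order. Its lowest WT library (17 counts) was just above its highest NHD13 library (18 counts in a deeper library). Rag1 fell 4.60-fold (log2 change -2.20 ± 0.61 SE, adjusted p = 0.0272). That call was lost without WT replicate 2, WT replicate 3 or NHD13 replicate 2 (adjusted p = 0.0677 to 0.108). Rag2 held 1.42, 1.93 and 2.3 CPM in WT and 0.15, 0.417 and 0.622 CPM in NHD13, with no overlap. Rag2 fell 4.63-fold (log2 change -2.21 ± 0.42 SE, adjusted p = 0.00641). Both gene models overlap B230118H07Rik, which had 296 to 340 counts in WT and 242 to 275 in NHD13 against 18 to 33 and 2 to 9 for Rag2, so the split of reads between these genes is uncertain.

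Il7r, the IL-7 receptor alpha chain on which early B and T cells of the mouse depend, was at 2.84, 5.21 and 5.08 CPM in WT and at 0.974, 1.25 and 1.11 CPM in NHD13. The groups did not overlap, and the NHD13 libraries lay close together. Il7r (chromosome 15, 9505788 to 9530176) fell 3.93-fold (log2 change -1.97 ± 0.30 SE, adjusted p = 0.00283), and the call held with any 1 library left out (adjusted p = 0.000455 to 0.0207).

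Transcription factors of the B lineage were near the detection limit or did not pass. Ebf1, which specifies the B-cell fate, had 3, 9 and 5 counts in WT and 1, 0 and 1 in NHD13, too few for the test. The ratio of WT to NHD13 over the summed counts was 8.87, with a 95% counting interval of 2.1 to 79.1. Pax5, which commits cells to the B lineage, had 8 WT and 5 NHD13 counts (ratio 1.67, interval 0.481 to 6.48). Pou2af1, a coactivator of octamer-binding factors in B cells, held 0.237, 2.16 and 2.16 CPM in WT and 0.225, 0.834 and 0.622 CPM in NHD13. WT replicate 1 therefore sat at the level of the lowest NHD13 library. Its log2 change of -1.43 (SE 0.69) did not pass (adjusted p = 0.149) and passed without WT replicate 1 (log2 -1.93, adjusted p = 0.0203). Foxo1, a forkhead factor that acts upstream of the RAG genes and Il7r, was at 6.38 ± 0.389 (WT) and 5.36 ± 0.559 CPM (NHD13) (log2 change -0.25 ± 0.15 SE, adjusted p = 0.242). Each WT library was above each NHD13 library by a small margin.

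The wider lymphoid transcription factors moved in both directions. Ikzf1 (Ikaros), a zinc-finger factor that opens lymphoid genes, was the most abundant of the set at 417, 447 and 443 CPM in WT and 431, 526 and 513 CPM in NHD13. The groups overlapped and the log2 change of 0.17 (SE 0.08) did not pass (adjusted p = 0.151). Without NHD13 replicate 1 it passed at a log2 change of 0.26 (adjusted p = 0.00198). Its relatives in the set, Ikzf2 and Ikzf3, fell. Outside the set Ikzf5 rose from 52.5 ± 2.39 to 61.9 ± 1.48 CPM (log2 change 0.24 ± 0.07 SE, adjusted p = 0.029). The call of Ikzf5 was lost without any 1 library except NHD13 replicate 1. Ikzf4 had 3 counts in each group, too few for the test. Ikzf2 (Helios) held 13.9, 22.7 and 17 CPM in WT and 10.1, 11 and 11.4 CPM in NHD13. The fall of Ikzf2 was 1.65-fold (log2 change -0.72 ± 0.18 SE, adjusted p = 0.0173). Ikzf3 (Aiolos), a factor of later B-cell stages, held 1.97, 3.57 and 2.99 CPM and 0.974, 1.39 and 1.31 CPM (2.31-fold, adjusted p = 0.0162). Neither pair of groups overlapped. Both calls were lost without WT replicate 2 or WT replicate 3, and that of Ikzf2 also without NHD13 replicate 2 (adjusted p = 0.0518 to 0.0551 for Ikzf2 and 0.0651 to 0.0698 for Ikzf3).

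Satb1, a chromatin organiser that promotes lymphoid priming, held 43, 62.2 and 58.6 CPM in WT and 29.7, 23.4 and 21.2 CPM in NHD13. The lowest WT library was above the highest NHD13 library. Satb1 (chromosome 17, 51736187 to 51833290) fell 2.21-fold (log2 change -1.14 ± 0.16 SE, adjusted p = 0.00226), in each fit with 1 library left out. Bcl11a, a zinc-finger repressor needed for early B cells and known for silencing fetal globin, went the other way. It held 84.4, 76.5 and 79.3 CPM in WT and 99.5, 121 and 124 CPM in NHD13, with no overlap between groups. Bcl11a (chromosome 11, 24078056 to 24174123) rose 1.43-fold (log2 change 0.52 ± 0.09 SE, adjusted p = 0.00552), and its log2 change was 0.45 to 0.62 with 1 library left out. Mn1, a transcriptional coregulator that is a leukaemia gene in humans, had 9, 17 and 16 counts in WT and 4, 3 and 6 in NHD13, below the filter (ratio 3.37, counting interval 1.77 to 6.84).

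The B-cell receptor complex was expressed weakly apart from Cd79b, and 1 of its 4 tested genes fell. Cd79b held 16.4, 18.7 and 19.6 CPM in WT and 15.8, 9.52 and 11.3 CPM in NHD13. NHD13 replicate 1 lay just under the lowest WT library. Cd79b (chromosome 11, 106311341 to 106314762) fell 1.495-fold (log2 change -0.58 ± 0.18 SE, adjusted p = 0.0405), a call that was lost when any 1 library except NHD13 replicate 1 was left out (adjusted p = 0.0585 to 0.14). Its partner chain Cd79a was at 1.48 ± 0.629 (WT) and 0.868 ± 0.409 CPM (NHD13) (log2 change -0.77 ± 0.44 SE, adjusted p = 0.209).

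The surrogate light chain genes did not pass or were too low. Igll1 (lambda 5) was at 0.846 CPM ± 0.208 and 0.518 CPM ± 0.215 (log2 change -0.68 ± 0.40 SE, adjusted p = 0.219). Vpreb3, a chaperone-like relative of the VPREB proteins, held 0.237, 1.12 and 1.04 CPM in WT and 0.075, 0.904 and 0.207 CPM in NHD13 (log2 change -0.998 ± 0.758 SE, adjusted p = 0.342). In both groups replicate 1 was the lowest library for Vpreb3. Vpreb1 had 20 WT and 13 NHD13 counts (ratio 1.6, counting interval 0.76 to 3.51) and Vpreb2 had 4 and 1 (ratio 4.17, interval 0.413 to 205). The protein-coding transcripts of Vpreb1 and Vpreb2 are identical at 739 of 759 aligned bases (97.4%), so reads of the 2 genes may be shared. Vpreb1 also lies over Top3b on the other strand, which had 1468 to 1647 counts per library.

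Among the genes of B-cell receptor signalling, 2 of 3 tested fell, both close to the threshold. Blnk, the adaptor that links SYK to downstream enzymes, held 0.869, 3.2 and 3.27 CPM in WT and 0.375, 1.11 and 0.829 CPM in NHD13. WT replicate 1 lay inside the NHD13 range. Blnk fell 3.15-fold (log2 change -1.65 ± 0.53 SE, adjusted p = 0.0458). The call was lost without WT replicate 2, WT replicate 3 or any 1 NHD13 library (adjusted p = 0.0626 to 0.163). Lax1, a membrane adaptor that dampens lymphocyte receptor signals, fell 1.79-fold from 2.95 ± 0.739 to 1.65 ± 0.404 CPM (log2 change -0.84 ± 0.28 SE, adjusted p = 0.049). That call was lost without any 1 WT library, NHD13 replicate 2 or NHD13 replicate 3 (adjusted p = 0.0713 to 0.171). Bank1, a B-cell scaffold protein, was at 5.1 CPM ± 0.7 and 4.15 CPM ± 0.962 (log2 change -0.30 ± 0.21 SE, adjusted p = 0.319). Blk, a SRC-family kinase of B cells, was below the filter with 3, 15 and 28 counts in WT and 1, 0 and 1 in NHD13 (ratio 24, counting interval 6.27 to 204).

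Both tested inhibitory surface receptors fell. Btla, an immunoglobulin-family receptor that restrains lymphocytes, held 9.48, 10.1 and 13.1 CPM in WT and 3.67, 2.99 and 3.18 CPM in NHD13. The groups were far apart in every library. Btla (chromosome 16, 45224315 to 45257670) fell 3.33-fold (log2 change -1.73 ± 0.18 SE, adjusted p = 0.000658), with log2 changes of -1.84 to -1.58 when 1 library was left out. Cd22, a sialic acid-binding inhibitor of the B-cell receptor, held 2.37, 2.38 and 3.06 CPM in WT and 0.675, 0.695 and 0.691 CPM in NHD13. Its NHD13 libraries were nearly level. Cd22 (chromosome 7, 30865402 to 30880342) fell 3.77-fold (log2 change -1.91 ± 0.26 SE, adjusted p = 0.0017), and its model overlaps the antisense gene Gm29439. The other surface genes were too low to test. Fcrla, an Fc receptor-like protein of B cells, had 5, 23 and 15 counts in WT and 0, 3 and 1 in NHD13 (ratio 11.2, counting interval 4.08 to 43). Ms4a1, which encodes the B-cell antigen CD20, had 1, 4 and 6 counts in WT and 0 in all NHD13 libraries, at least 3.82-fold higher in WT against a floor of 3 counts over the NHD13 group. With the counting error of the 11 WT counts included, the lower limit of the 95% counting interval was 2.62-fold.

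The remaining genes are enriched in lymphocytes but are also used by other blood cells. Cd52, a small surface glycoprotein, held 121, 177 and 161 CPM in WT and 101, 109 and 111 CPM in NHD13 (1.43-fold lower, log2 change -0.52 ± 0.13 SE, adjusted p = 0.0183). Lsp1, an actin-binding protein of leukocytes, held 102, 177 and 150 CPM and 81.2, 104 and 96.4 CPM (1.52-fold lower, log2 change -0.61 ± 0.18 SE, adjusted p = 0.0359). WT replicate 1 was the lowest WT library for both, and for Lsp1 it lay within the NHD13 range. Both calls were lost when replicate 2 or 3 of WT or replicate 1 or 2 of NHD13 was left out (adjusted p = 0.0515 to 0.077 for Cd52), and that of Lsp1 also without NHD13 replicate 3 (0.0594 to 0.218). Mzb1, a chaperone of antibody-secreting cells, had 8 counts in each group.

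Per kilobase of exon, and so comparable between genes, Cd52 was highest in WT with 129 CPM per kilobase, followed by Ikzf1 with 75.5, Lsp1 with 27.6, Dntt with 16.6 and Cd79b with 12.7. In NHD13 Cd52 stood at 90.1, Ikzf1 at 84.8 and Dntt at 0.624 CPM per kilobase. Among the genes restricted to lymphoid cells, Rag1, Rag2 and Cd22 were at 0.516 to 0.558 and Ebf1 and Pax5 at 0.0428 and 0.0211 CPM per kilobase in WT. Exon lengths are from GENCODE vM21, where 21 of the 31 genes overlap a neighbour, 15 with one transcribed the opposite way, and whether reads were counted by strand is not given in the sources used here.

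Replicate 1 was the lowest library of its group for most of these genes. WT replicate 1 was the lowest WT library for 19 of the 22 tested genes (86.4%), against 36.3% of all tested genes, and NHD13 replicate 1 was the lowest NHD13 library for 17 (77.3%), against 44.8%. The mean of WT replicates 2 and 3 over WT replicate 1 had a median of 1.42 over the 22 genes and 1 over all tested genes. This WT ratio was 2.16 for Dntt, 3.62 for Rag1, 3.72 for Blnk and 9.11 for Pou2af1. In NHD13 the median of the same ratio was 1.23 over the 22 genes and 1.01 over all tested genes. For Satb1, Cd79b, Lax1, Btla and Foxo1, NHD13 replicate 1 was the highest NHD13 library. Without WT replicate 1, 16 of 25 tested genes of the set fell and 1 rose, and without NHD13 replicate 1, 14 of 25 fell and 2 rose. With both replicate 1 libraries left out, 18 of 25 fell and 2 rose. Without WT replicate 2 or without WT replicate 3 6 fell, and without NHD13 replicate 2, 8 fell. The count over all tested genes moved in these fits as well. Against 1839 of 12013 lower with all libraries, it was 1615 without WT replicate 1, 2966 without NHD13 replicate 1, 3245 of 12176 without both, 957 of 12175 without WT replicate 2, 978 without WT replicate 3 and 1069 without NHD13 replicate 2.

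RNA of the sex chromosomes also differed between libraries. Xist was at 462, 1020 and 1080 CPM in WT and at 2.55, 1.95 and 683 CPM in NHD13, and the Y-linked genes Ddx3y, Eif2s3y, Kdm5d and Uty took 0.0194%, 0.0109% and 0.0113% of the counts in WT and 0.0248%, 0.028% and 0.0177% in NHD13. Xist and Y-linked RNA were thus found together in every WT library and in NHD13 replicate 3. WT replicate 1 had the highest Y-linked share of the WT libraries and the lowest level of most of the lymphoid genes. With that share added to the model (the Y-linked covariate), 2 of the 15 calls stayed, those of Dntt (log2 change -3.54 ± 0.22 SE, adjusted p = 0.000554) and Btla (log2 change -1.55 ± 0.30 SE, adjusted p = 0.0435). Over the 15 genes the log2 change kept a median of 71.7% of its size and the median SE went from 0.256 to 0.30. The part kept was 29.8% for Rag1, 34.8% for Blnk, 92.8% for Cd22 and 99.9% for Bcl11a. The groups held 57.8% of the variance of this share, so that with 3 libraries a group the sex of the animals and the genotype cannot be fully told apart.

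**Figure D3:**
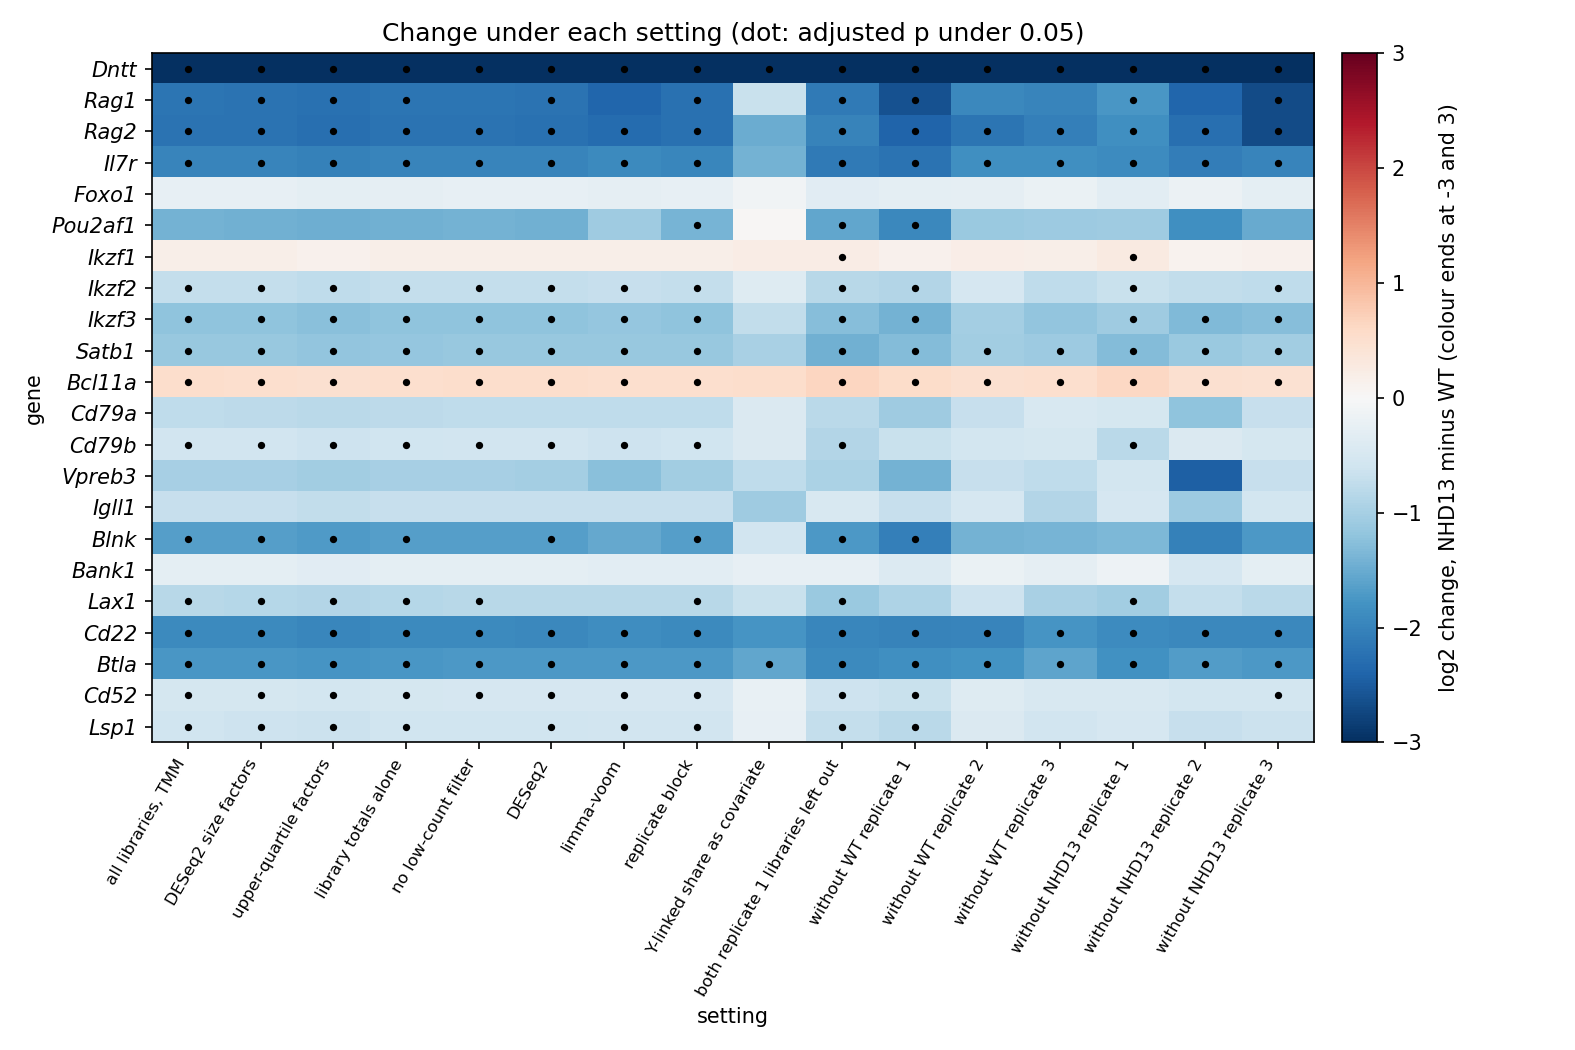
Log2 change of NHD13 minus WT (colour, ending at -3 and 3) for the 22 tested genes under each setting, with a dot where the adjusted p was under 0.05. Dntt and Btla have a dot in every column, and the column of the Y-linked covariate has dots for those 2 genes alone.

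Genes that work with this set were read from lists of partners. Beside the counts of these lists and the marker lists stand 15.3% lower and 15.0% higher among all tested genes. Of 12 tested partners of lymphoid priming, 11 fell and 0 rose. Flt3, the cytokine receptor of lymphoid-primed progenitors, held 31.5, 54.3 and 45.4 CPM in WT and 2.02, 1.53 and 4.7 CPM in NHD13 (log2 change -3.98 ± 0.35 SE, adjusted p = 0.000229). Like Dntt it was lowest in WT replicate 1. Cd27, a co-stimulatory receptor of the TNF family, fell from 25.2 ± 2.02 to 5.71 ± 1.47 CPM (adjusted p = 0.00017) and the sialomucin gene Cd34 from 175 ± 3.1 to 47 ± 17.7 CPM (adjusted p = 0.000922). The count of 11 was 7 without WT replicate 2 or WT replicate 3 and 4 with the Y-linked covariate. The median log2 change of the list was -1.40. Flt3, Cd34 and Cd48 of this list are also among the stem and progenitor markers.

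Among 17 tested regulators outside the set, 8 fell and 3 rose, with a median log2 change of -0.24. The named genes are those with the lowest p. The repressor gene Zeb2 fell from 157 ± 9.54 to 103 ± 3.97 CPM (adjusted p = 0.000843), Sox4 from 26.3 ± 3.05 to 12.4 ± 1.42 CPM (adjusted p = 0.000954) and the interferon regulatory factor gene Irf8 from 279 ± 45.6 to 79 ± 28.9 CPM (adjusted p = 0.00139). The count of 8 was 4 without WT replicate 2 or WT replicate 3 and 0 with the Y-linked covariate, where the count of 3 was 0 as well. Tcf3, which encodes the E proteins E12 and E47 that act upstream of Ebf1, was higher, at 144 ± 13.4 (WT) and 221 ± 38 CPM (NHD13) (log2 change 0.61 ± 0.13 SE, adjusted p = 0.00878), and was singled out after its values were seen.

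Downstream of the IL-7 receptor, 1 of 13 tested genes fell and 2 rose (median log2 change -0.06). The survival gene Bcl2 fell from 67 ± 2.12 to 21.9 ± 10.8 CPM (log2 change -1.61 ± 0.26 SE, adjusted p = 0.0039). Socs2, a feedback inhibitor of cytokine signals, rose from 0.321 ± 0.0256 to 1.37 ± 0.282 CPM (adjusted p = 0.00409), and Stat5a, which transmits the signal, rose from 83.1 ± 3.05 to 103 ± 11.6 CPM (adjusted p = 0.0298). The call of Stat5a was lost without any 1 library except NHD13 replicate 1, and the number that fell was 2 without WT replicate 1 and 4 without NHD13 replicate 1. None of these genes passed with the Y-linked covariate.

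End-joining genes close the cuts made by the RAG proteins. The list of V(D)J joining and end joining had no common direction, with 2 of 13 tested higher, 1 lower and a median log2 change of 0.03. It also holds Hmgb1, Hmgb2, Atm and Trp53bp1, which are not end-joining enzymes. Their log2 changes were -0.07, -0.19, -0.04 and -0.18, and with all libraries none of them passed. Xrcc5 (Ku80) rose from 26.6 ± 1.56 to 45.2 ± 9.21 CPM (log2 change 0.76 ± 0.15 SE, adjusted p = 0.00671) and Xrcc6 (Ku70) from 97.1 ± 4.91 to 118 ± 10.9 CPM (adjusted p = 0.0363), while the polymerase gene Poll fell from 20.9 ± 0.449 to 16.7 ± 1.05 CPM (adjusted p = 0.0325). The calls of Xrcc6 and Poll were lost without any 1 library except NHD13 replicate 1. DESeq2 gave 2 higher and 0 lower, upper-quartile scaling gave 1 and 3, leaving out NHD13 replicate 1 gave 5 and 2, and the Y-linked covariate gave 0 and 0.

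Of 16 tested partners in B-cell receptor signalling 8 fell and 0 rose, with a median log2 change of -0.35. The inhibitory receptor gene Cd72 fell from 4.55 ± 1.09 to 1.72 ± 0.497 CPM (adjusted p = 0.00752) and the protease gene Malt1 from 61 ± 0.778 to 46.8 ± 5.21 CPM (adjusted p = 0.0134). Several of the other genes, such as Syk, Lyn and Btk, are also used by myeloid cells. The count of 8 moved to 4 without WT replicate 2 and 3 without WT replicate 3. It was 2 of 17 tested without NHD13 replicate 2 or NHD13 replicate 3 and 15 of 17 without NHD13 replicate 1. With the Y-linked covariate it was 0. The call of Malt1 was lost without WT replicate 3, NHD13 replicate 2 or NHD13 replicate 3.

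**Figure D4:**
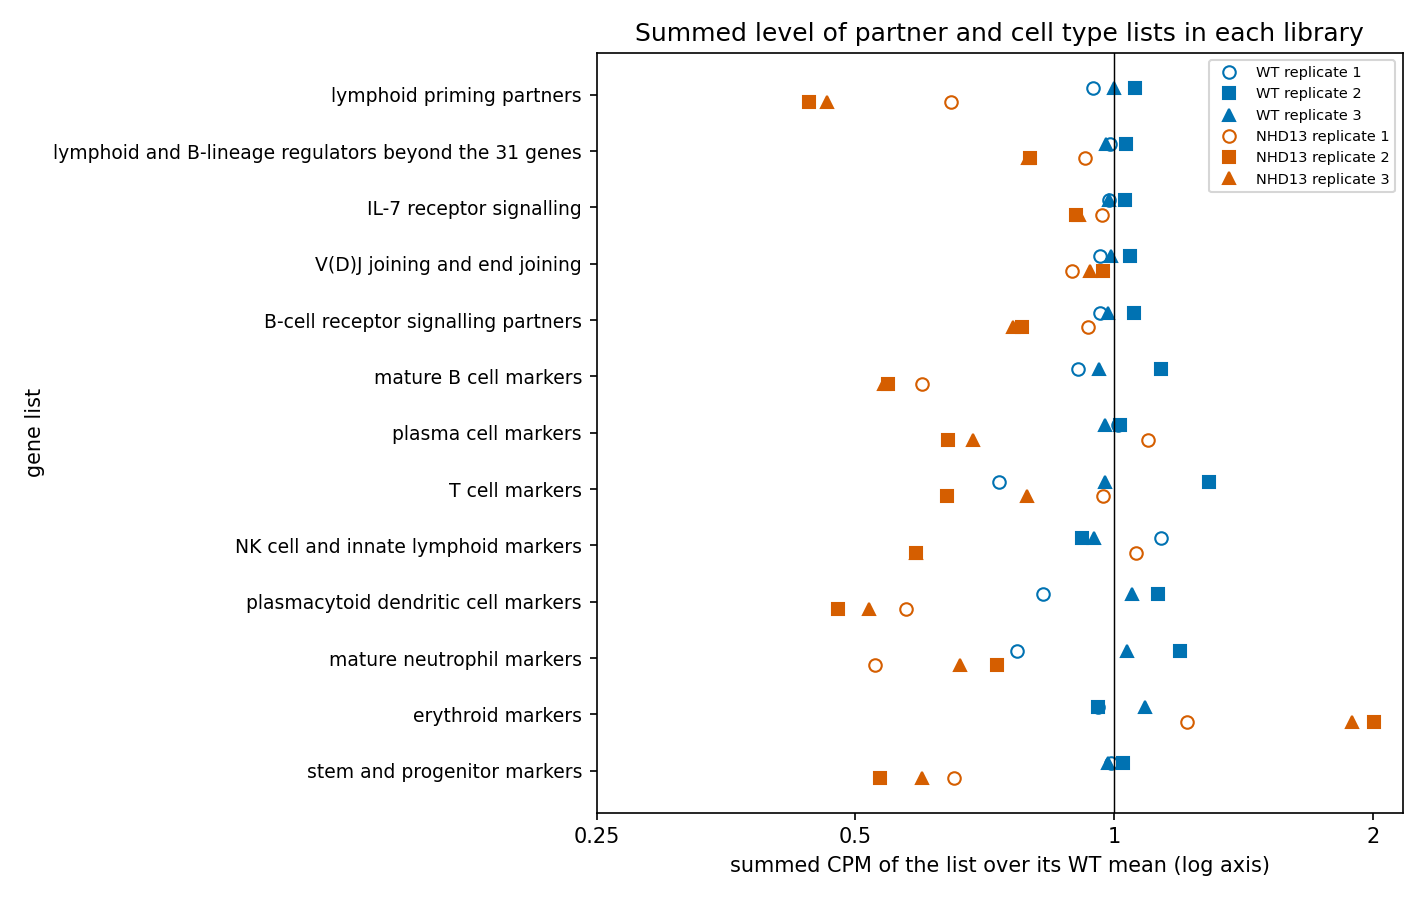
Summed CPM of each partner and cell type list in each library, divided by the mean of the 3 WT libraries, on a log axis (open circles are replicate 1). The summed level of the lymphoid priming partners was 753 to 842 CPM in WT and 352 to 515 CPM in NHD13. That of the list of V(D)J joining and end joining overlapped between groups (3120 to 3380 and 2890 to 3140 CPM). Most of that sum came from Hmgb1 (means of 1020 CPM in WT and 971 CPM in NHD13) and Hmgb2 (1730 and 1520 CPM), so it says little about the other genes. Nkg7 made up most of the NK cell sum and Xbp1 most of the plasma cell sum.

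Markers of cell types that could carry these transcripts moved as well. Of 7 tested markers of mature B cells 5 fell, and all 5 belong to MHC class II presentation, which dendritic cells and macrophages share. Cd74, the invariant chain, fell from 33.3 ± 7.8 to 3.32 ± 0.776 CPM (adjusted p = 6.4e-05), H2-Ab1 from 22.6 ± 4.22 to 4.35 ± 0.326 CPM and H2-Aa from 20.6 ± 4.48 to 2.41 ± 0.867 CPM (adjusted p = 7.5e-05 and 0.000196). The complement receptor gene Cr2 was too low to test, with 7 counts in WT and 6 in NHD13. The 11 markers in the table summed to 188 to 235 CPM in WT and 112 to 124 CPM in NHD13, and none was at 0 in every library. Cd37 alone made up 114, 119 and 112 CPM of the WT sums and 113, 98.6 and 95.7 CPM of the NHD13 sums. It did not pass in edgeR (adjusted p = 0.136), and most of the rest of the WT sums came from the MHC class II genes.

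Plasmacytoid dendritic cells also express Dntt and B-lineage genes. Of 8 tested markers 5 fell and 2 rose (Tcf4 and Irf7), and the 12 markers summed to 319, 434 and 404 CPM in WT replicates 1 to 3 and 184 to 221 CPM in NHD13. Ccr9, Ly6d, Spib, Irf8 and Tcf4 also stand in the partner or regulator lists above, so Siglech is the only fall not counted there. Irf8 alone made up 230, 320 and 287 CPM of the WT sums and 112, 57.2 and 68.2 CPM of the NHD13 sums. Besides Irf8, Ly6d held 1.18, 5.06 and 3.97 CPM in WT and 0, 0 and 0.138 CPM in NHD13 (adjusted p = 0.00308), and Tcf4 rose from 47.6 ± 1.68 to 65.1 ± 4.45 CPM (adjusted p = 0.00431). The receptor gene Siglech, a defining marker, held 1.34, 4.31 and 6.06 CPM in WT and 0, 0.209 and 0.345 CPM in NHD13 (adjusted p = 0.00512). Irf8, Ly6d and Siglech were each lowest of the WT libraries in replicate 1. The count of 5 was 3 without WT replicate 3 and 1 with the Y-linked covariate, and the call of Irf7 held only when WT replicate 3 or NHD13 replicate 1 was the library left out. The part of any of these cells in the fall of the lymphoid genes was not tested.

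Some plasma cell, NK cell and neutrophil markers also fell, and some erythroid markers rose. For plasma cells 2 of 4 tested markers fell, Sdc1 from 4.19 ± 1.57 to 0.768 ± 0.475 CPM (adjusted p = 0.00667) and Igj from 1.46 ± 0.576 to 0.165 ± 0.173 CPM (adjusted p = 0.00983), and 4 of 5 tested fell without NHD13 replicate 1. For NK and innate lymphoid cells 4 of 6 fell, led by Ncr1 with 67 counts in WT and 2 in NHD13 (adjusted p = 0.00355), Klrk1 (adjusted p = 0.00662) and Klrd1 (adjusted p = 0.00953). More of these markers reached the filter in some fits, and 7 of 9 tested fell without WT replicate 1 and 8 of 9 without NHD13 replicate 1. The low-count filter lies at 0.718 CPM. Ncr1 and Klrd1 were below it in every NHD13 library, so they were tested through their WT level alone. The same holds for Igj, and for Ly6d, Ccr9 and Siglech above, while Socs2 was below it in every WT library. None of the 4 tested T cell markers passed in edgeR or limma-voom, nor any of the 13 with a p in DESeq2, and 0 had an unadjusted p under 0.05. The most abundant were Lck at 4.42 ± 1.86 (WT) and 3.06 ± 0.141 CPM (NHD13) and Tcf7 at 4.14 CPM ± 1.04 and 3.39 CPM ± 0.994. Of the T cell markers, 1 of 7 tested fell without WT replicate 1 and 2 of 7 without NHD13 replicate 1. With no low-count filter 2 of 14 fell, and with both replicate 1 libraries left out 4 of 6.

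Neutrophil markers fell for 8 of 10 tested, with Retnlg (adjusted p = 0.0074), Ltf (adjusted p = 0.00846) and Lcn2 (adjusted p = 0.0087) first. Their sum was 32900, 50900 and 44200 CPM in WT and 22500, 31200 and 28200 CPM in NHD13, lowest in replicate 1 of each group, as for most of the lymphoid genes. The count of 8 was 3 without WT replicate 2 or WT replicate 3, 2 with no low-count filter and 0 without NHD13 replicate 1. Erythroid markers rose for 5 of 7 tested, with Klf1 (adjusted p = 0.00221), Epor (adjusted p = 0.00469) and Tfrc (adjusted p = 0.00481) first, and summed to 1850 to 2100 CPM in WT and 2350 to 3880 CPM in NHD13. With the Y-linked covariate the counts of the plasma cell, NK cell, neutrophil and erythroid lists were 0, and 4 of the mature B cell markers stayed lower. Since CPM are shares of a library, a larger share of one cell type lowers those of the others, and the part of this in the values above was not tested.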

How the data were processed

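RNA of FACS-sorted bone marrow cells was sequenced in 3 WT and 3 NHD13 libraries. The authors deposited raw counts per gene and library, which they had not normalised. The submitters' processing notes name the mouse build mm10, the counter HTSeq 0.5.4p3 and the aligner Bowtie2 2.2.1. Annotation, strandedness and read filtering: not given in the sources used here. Each column was tied to a sample through its name (initial and replicate number). Of 17523 entries, 0 lacked a gene name and 0 value columns were left unused.

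The comparison was made with edgeR 4.0.16 in R 4.3.3. filterByExpr with a minimum count of 10 kept 12013 genes, TMM scaled the libraries, and glmQLFit (robust) with glmQLFTest had the group as its term. SEs were taken as the absolute log2 change over the root of the F statistic. Intervals of count ratios are exact (Clopper-Pearson, 95%) and cover counting error only. All tests were two-sided, and p-values were adjusted over all tested genes. Positions are from GENCODE vM21 (GRCm38).

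The genes and lists were chosen with earlier results of these data known. Every gene of the set is accounted for; in each of 13 partner and marker lists up to 3 genes with the lowest p are named (the 2 most abundant if none passed), with others as stated. Alternatives were other scalings, no filter, DESeq2 1.42.0, limma-voom (limma 3.58.1), a replicate block, a Y-linked covariate and leaving out libraries. The genes Ighm, Ighd, Igkc, Spi1, Ly6g, Hba-a1, Hba-a2 and Hbb-b2 were not analysed here. Some genes that this rule would name are not reported here.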

Additional observations from a re-analysis of the deposited data

How the results depend on the processing

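Of the 15 calls in the set, all 15 stayed with DESeq2 size factors, upper-quartile factors or library totals alone. Limma-voom lost Rag1, Blnk and Lax1, DESeq2 lost Lax1, and the fit with no filter lost Rag1, Blnk and Lsp1 while 5 otherwise untested genes (Blk, Ebf1, Fcrla, Mn1 and Ms4a1) passed as lower. In the fit with the Y-linked covariate, 2 genes of the set were lower and 0 higher, among all tested genes 175 lower and 111 higher, and the log2 change of Pou2af1 turned from -1.43 to 0.036 (adjusted p = 0.985). With both replicate 1 libraries left out, 18 of the set were lower and 2 higher, and 3245 and 3244 of all tested genes. Leaving out 1 library at a time gave 6 to 16 lower and 1 to 2 higher in the set, and 957 to 2966 lower and 760 to 3012 higher over all tested genes, where fewer samples enter each fit. Upper-quartile scaling shifted the median of all genes to -0.04 and gave 2132 lower and 1427 higher. The deviations of same-numbered libraries from their group means correlated at 0.249, 0.063 and 0.175 over 12013 genes. As 1 pair was under 0.1, the numbers were not taken as pairs, and whether they mark a shared batch was not tested. With the replicate block, 15 genes of the set were lower and 1 higher (Pou2af1 was added, adjusted p = 0.0163), and 2233 and 2007 of all tested genes. Every library except NHD13 replicate 2 correlated best with its own number in the other group. The 9 untested genes had at most 46 counts over a group and reached the filter in at most 2 WT and 0 NHD13 libraries. The cause of these differences was not tested.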
